A study of Mus musculus with 283 samples.

Results

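The 9 genes described here, Cdkn1a, Ccng1, Bax, Bbc3, Aen, Trp53inp1, Mdm2, Phlda3 and Sesn2, are known targets of the transcription factor p53, encoded by Trp53. They were taken by name from the 45657 genes kept in the table of mouse mammary tumours and mammary glands, and all 9 passed the filter on low values. The question followed here is how these genes are expressed in mammary tumours that carry a Trp53 lesion, and whether their level differs between models, over time and under immune checkpoint therapy.

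p53 is stabilised after DNA damage and other stresses, binds a response element near its target genes and raises their transcription. Its targets stop the cell cycle, trigger apoptosis, or, through Mdm2, return p53 to a low level. Mammary tumours of the triple-negative type frequently lose p53. Several of the same targets can also be induced without p53 by other stress-responsive factors, so a cell without p53 need not have these genes at 0.

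The promoter sequences are shown because they mark which of these genes carry the p53 motif next to their start. In windows of RefSeq promoters (GRCm38.p6) running 250 bases before to 50 bases after a transcription start, a p53 response element of 20 bases was searched on both strands, with up to 3 mismatches and the C and G core of each decamer kept. This definition was chosen with the sequences in view. A match was present for 4 of the 8 genes with an entry and for 1.63% of 27025 genes in the table. With at most 1 mismatch, 2 of the 8 genes and 0.0814% of all genes had one. Each line gives the matched bases in capitals with 5 flanking bases on each side, 5′ to 3′ on the gene's strand. Cdkn1a and Ccng1 had 1 mismatch each, Aen and Bbc3 3 mismatches each.
Cdkn1a, chr17:29090923-29090952, plus strand: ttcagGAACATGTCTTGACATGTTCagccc
Ccng1, chr11:40755457-40755486, minus strand: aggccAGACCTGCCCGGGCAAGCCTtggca
Aen, chr7:78895932-78895961, plus strand: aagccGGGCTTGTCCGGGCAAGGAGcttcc
Bbc3, chr7:16309481-16309510, plus strand: cccgaCTGCAAGCCCCGACTTGTCCccagc
The windows of Bax, Mdm2, Phlda3 and Sesn2 held no match, which says only that these letters are absent from those windows.

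Poly(A) RNA was sequenced from 264 tumour and gland libraries and from 6 cultured lines. For the therapy arms the labels describe orthotopic injection into syngeneic hosts, and KPB-Primary, PyMT, C3-TAG and ILC tumours are not individually labelled as transplants. Treated mice received anti-CTLA4 (125 ug) and anti-PD1 (10 mg/kg) intraperitoneally from a tumour diameter of 5 mm. Samples were taken at 3 days, at 7 days or at end stage. The header of the deposited table calls the untreated tumours labelled 3 days pretreatment, so a therapy difference at 3 days may also hold a difference of time. The groups compared are therapy and untreated tumours of T11, T11-UV, T11-Apobec, KPB25L and KPB25L-UV at all these times, and of p53-2225L and p53-2336R at 3 days and end stage.

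Models counted as carrying a Trp53 lesion were KPB-Primary, KPB-1A and KPB-1B, labelled as K14-Cre with floxed Brca1 and p53, where the keratin 14 promoter drives Cre, together with KPB25L, T11 and every model named p53-. For KPB25L, T11 and the p53- models the labels give a model name and no genotype. The Trp53-null origin of T11 and the other p53- transplants is general knowledge. T11 and each p53- model are single transplanted tumour lines. The labels do not say whether p53-2224 and p53-2224L are one line, and they were counted as separate models, while T12, a name without p53-, was left out. UV and Apobec mark derivatives of T11 and KPB25L. They were set against PyMT tumours, named for polyoma middle T antigen, against ILC-Pik3Ca/Cdh1Null tumours, named for activated Pik3ca and lost Cdh1, and against normal mammary glands of BALB/c and FVB mice. Glands of both strains were weighted equally, whatever the strain of the tumour. The labels give no Trp53 status for PyMT or ILC. C3-TAG tumours, whose SV40 T antigen binds and inactivates p53 and Rb proteins, were kept as a group of their own. Ages and sexes of the mice are not given in the labels, and nothing in the labels says which samples shared a litter or day.

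The tumour and gland libraries held an estimated 10.4 to 149.6 M reads (median 51.4 M). Values are log2(signal + 1), where the signal is the deposited value scaled to one upper quartile, and levels are compared within a gene only. Of 27 KPB25L-UV libraries, 6 carried transcripts that mark T11: over 50 T11 marker genes they averaged 6.44 to 8.84 log2 units, against 1.42 to 4.22 in the other 21 and 1.78 to 4.60 in 31 KPB25L and KPB25L-Apobec libraries. The libraries also differed in how signal depended on transcript length. For each library the slope of its deviation from the mean library on log2 exon length was taken over 9855 genes, and a negative slope means that long transcripts were low relative to short ones. Exon length of the 9 genes ran between 1559 bases in Phlda3 and 6475 bases in Trp53inp1, with 1576 bases in Bax, against a median of 4715 bases over those genes. Slopes are given beside some of the results they move with. In bulk tissue, fewer cells of a type and less RNA per cell cannot be told apart.

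Trp53 itself (chr11:69580359-69591873, plus strand) had its lowest means in the KPB tumours. At end stage it averaged 8.98 ± 1.06 in KPB-1A (SD, n = 5), 9.10 ± 0.73 in KPB-1B (n = 4), 9.77 ± 0.49 in KPB-Primary (n = 24) and 10.15 ± 0.39 in KPB25L (n = 6). KPB25L-UV averaged 10.60 ± 1.00 (n = 6), with 5 libraries between 9.79 and 10.49 and 1 at 12.58, the library of this group that carried T11 markers. It averaged 11.98 ± 0.07 in T11 (n = 5), 12.74 ± 0.29 in p53-2225L (n = 5) and 12.63 ± 0.20 in p53-2336R (n = 8). PyMT tumours averaged 12.59 ± 0.41 (n = 5), ILC tumours 12.26 ± 0.21 (n = 10), BALB/c glands 12.32 ± 0.42 (n = 5) and FVB glands 11.61 ± 0.38 (n = 4). The 5 KPB means lay below both gland means, while the KPB25L-UV library with T11 markers lay within the range of the BALB/c glands. A gene-level signal does not show which part of a transcript is present, so a level near that of the gland does not speak for or against a null allele that is still transcribed.

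Across untreated end-stage tumours, the 9 genes differed between p53-lesion models and other tumours in both directions. With 1 mean per model as the replicate, 0 of the 9 genes passed an adjusted p of 0.05 against PyMT and ILC in limma's moderated test, and 1 passed an unadjusted 0.05, while 1.05% of all genes tested were called. The median difference of the 9 genes was -0.27, against -0.16 over all genes. The lowest were Trp53inp1 at -1.46 and Ccng1 at -1.16 ± 0.32 (SE, adjusted p = 0.0752), and Phlda3 lay at 0.97. PyMT and ILC were all sequenced on 1 flow cell that held no p53-lesion tumour, so the flow cell and the tumour class cannot be told apart. Against glands, 2 of the 9 genes were called, where 16.2% of all genes were. Ccng1 was lower by -1.98 ± 0.32 (adjusted p = 0.000157) and Bax was higher by 0.94 ± 0.30 (adjusted p = 0.0346). The Bax call was lost with the length slope as a term (0.65, adjusted p = 0.071), with only models of 4 or more libraries (0.68, adjusted p = 0.173) and with C3-TAG counted among the lesion models (0.91, adjusted p = 0.0517).

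**Figure D1:**
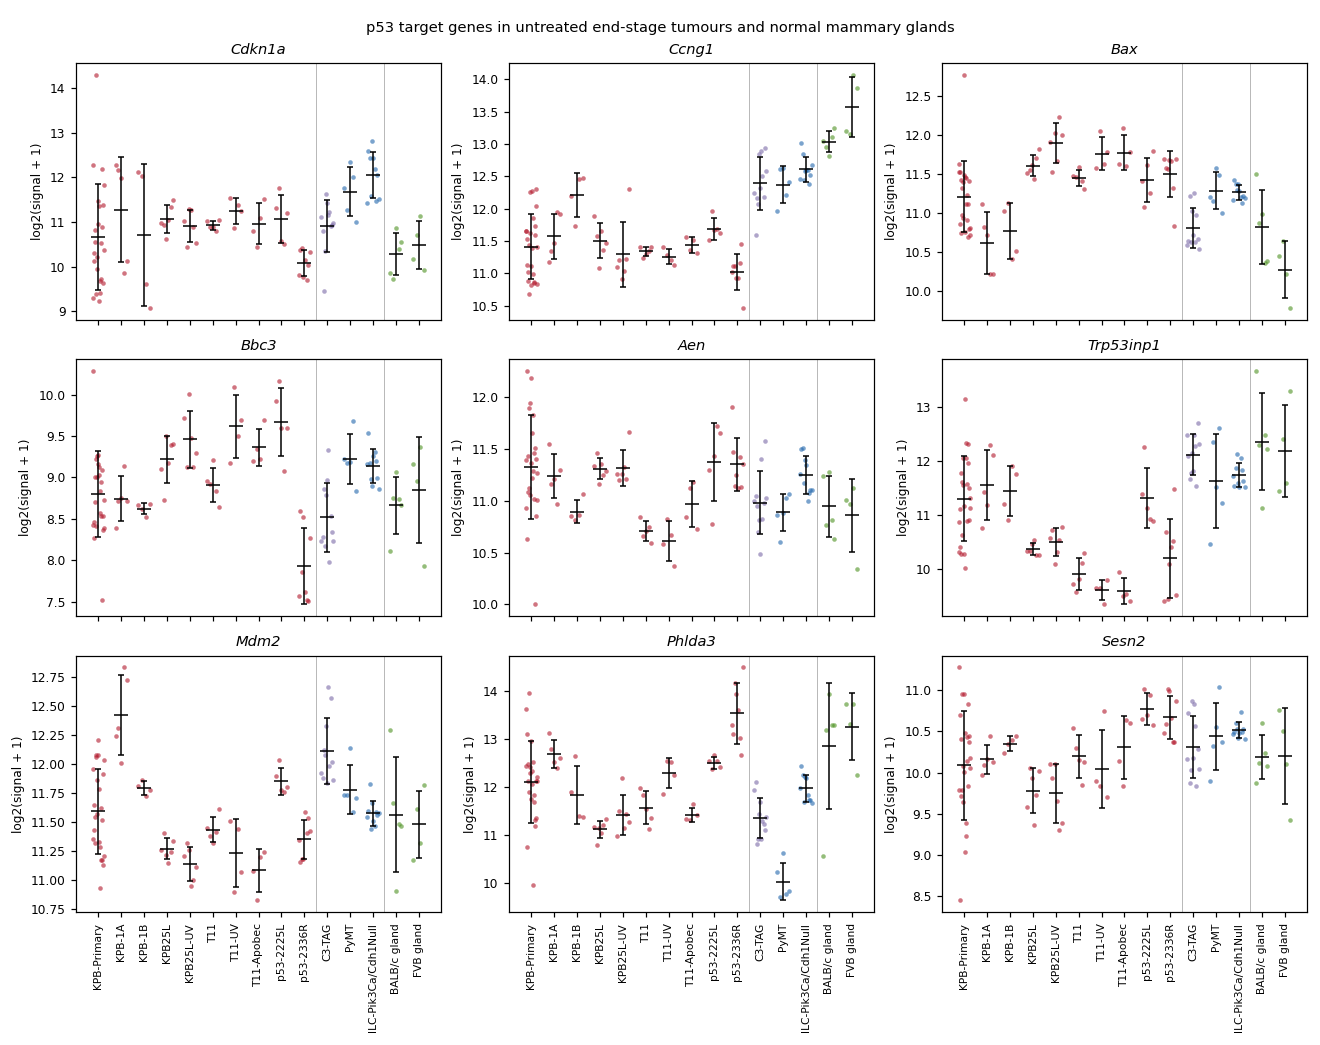
Level of each gene, as log2(signal + 1), in every untreated end-stage tumour of groups with 4 or more libraries and in glands, with p53-lesion models in red, C3-TAG in purple, PyMT and ILC in blue, and glands in green. Each point is 1 sample and the bars are the mean and SD. Ccng1 means lie between 11.03 and 12.21 in the red groups and at 13.03 or above in the glands.

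Ccng1 and Cdkn1a act on the cell cycle. Cyclin G1, the product of Ccng1 (chr11:40748552-40755311, minus strand), binds the phosphatase PP2A and takes part in p53 feedback. The p53-lesion groups averaged between 11.03 ± 0.28 in p53-2336R (n = 8) and 12.21 ± 0.34 in KPB-1B (n = 4), with T11 at 11.34 ± 0.07 (n = 5) and KPB-Primary between 10.69 and 12.31 (median 11.43, n = 24). PyMT tumours had 11.96, 12.62, 12.63, 12.22 and 12.42, ILC tumours 12.38 to 13.01 (median 12.59), and C3-TAG averaged 12.39 ± 0.41 (n = 11). BALB/c glands had 13.04, 12.95, 12.82, 13.11 and 13.25, and FVB glands 13.20, 13.15, 14.07 and 13.87. No library of KPB-Primary reached the lowest gland, and each pair of neighbours in the order of the 15 groups overlapped.

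In a fit with single libraries as replicates, Ccng1 was lower than in glands in all 13 end-stage models tested. The difference ran between -2.28 and -1.09 in the 10 p53-lesion models and was -0.93 in PyMT, -0.91 in C3-TAG and -0.69 in ILC. Between 46% and 68.9% of all genes were called in these comparisons (25.7% to 40.5% lower), so a call alone sets Ccng1 little apart. Against PyMT and ILC, where 49.5% to 59.7% of genes were called, Ccng1 was lower in 9 of 10 p53-lesion models, by -1.46 in p53-2336R and -0.28 (not called) in KPB-1B. On the only flow cell that held both classes, the p53-lesion tumours had 12.31 (KPB-Primary), 11.62 (p53-2225L), 10.84 (p53-2224) and 10.47 (p53-2336R), and 4 glands had 12.82 to 13.20. Glands also held more of other cell types: in the fit of model means, the p53-lesion tumours were lower than glands in 6 of 6 adipocyte markers (median -10.85), 6 of 6 T cell markers (median -6.95) and 4 of 4 skeletal muscle markers (median -8.0), and the part of these cells in the Ccng1 difference was not tested. One BALB/c gland had a summed muscle marker level of 6.46, the lowest among the glands, and its Ccng1 level of 13.04 lay within the range of the other glands. The same gland had the highest B cell sum (17.67) and the lowest adipocyte (16.74) and fibroblast sums (15.76) of the glands. It thus differed in more than muscle, and the part of each cell type was not tested.

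Cdkn1a (chr17:29090976-29100727, plus strand) encodes p21, the inhibitor of cyclin-dependent kinases through which p53 halts the cell cycle. Among p53-lesion groups p53-2336R was low and narrow, at 9.69 to 10.42 (median 10.09, n = 8), and KPB-Primary was wide, at 9.23 to 14.31 (median 10.46, n = 24). ILC tumours had the highest mean of the 15 groups, 12.05 ± 0.52 (n = 10), followed by PyMT at 11.68 ± 0.55 (n = 5). FVB glands averaged 10.48 ± 0.55 (n = 4) and BALB/c glands 10.28 ± 0.48 (n = 5). Against glands, 0 of 10 p53-lesion models were called for Cdkn1a in limma, 1 at an unadjusted p under 0.05, with differences between -0.31 and 0.90, while ILC (1.67) and PyMT (1.30) were higher. Against PyMT and ILC, 5 of the 10 p53-lesion models were lower, with differences between -1.80 and -0.59 over the 10 models. Per comparison, 46% to 68.9% of all genes were called against glands. Against PyMT and ILC 49.5% to 59.7% were called, and 19.3% to 34.4% were called lower.

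Cdkn1a split KPB-1A and KPB-1B tumours by flow cell. The KPB-1A tumours had 12.27, 12.17, 11.98, 9.85 and 10.12, and the KPB-1B tumours 12.13, 12.03, 9.62 and 9.07. In each model the low pair was sequenced together on 1 flow cell, and those 4 libraries also had low Trp53 (7.65 to 8.65, against 9.56 to 10.07) and steeper length slopes (0.34 to 0.48, against 0.19 to 0.24). Flow cell and mouse cannot be told apart in the spread of these models.

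Bax, Bbc3, Aen and Trp53inp1 act in cell death. Bax (chr7:45461697-45466898, minus strand) permeabilises the outer mitochondrial membrane. Its end-stage means ran between 10.61 in KPB-1A and 11.89 in KPB25L-UV among p53-lesion groups, with 11.28 in PyMT and 11.26 in ILC, and 10.82 ± 0.47 in BALB/c (n = 5) and 10.27 ± 0.37 in FVB glands (n = 4). It was higher than in glands in 8 of 10 p53-lesion models. Trp53inp1 (chr4:11156431-11174379, plus strand), whose product promotes cell death and autophagy, ran the other way. It averaged 9.91 ± 0.30 in T11 (n = 5), 9.61 in T11-UV and 9.60 in T11-Apobec, against 12.12 ± 0.38 in C3-TAG (n = 11), 12.36 ± 0.90 in BALB/c (n = 5) and 12.19 ± 0.85 in FVB glands (n = 4). It was lower than in glands in 9 of 10 p53-lesion models and 0 of the 3 others, ILC, C3-TAG and PyMT (11.63 ± 0.87, n = 5). C3-TAG carries the T antigen that inactivates p53, so these 3 are not all tumours with intact p53 function. Per comparison with glands, 25.7% to 40.5% of all genes were called lower and 19.4% to 38% higher. Bax is short (1576 bases) and Trp53inp1 long (6475 bases), and the length slopes differed between groups. Median slopes were 0.22 in KPB-1A, 0.38 in C3-TAG, 0.18 in PyMT, 0.16 in ILC, 0.20 in BALB/c and 0.16 in FVB glands. They were 0.03 in T11, -0.05 in T11-UV, -0.02 in T11-Apobec and -0.05 in KPB25L-UV. With the slope as a term, the tests of all 9 genes against glands gave 59 calls, 24 higher and 35 lower. That total does not show how many calls of Bax or Trp53inp1 were kept.

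Bbc3 (chr7:16308393-16318205, plus strand) encodes Puma, a BH3-only activator of apoptosis. It separated a pair of p53- models, with 9.67 ± 0.41 in p53-2225L (n = 5) and 7.93 ± 0.46 in p53-2336R (n = 8), and glands lay between them at 8.85 (FVB) and 8.67 (BALB/c). Aen (chr7:78895854-78911209, plus strand) encodes an apoptosis-enhancing nuclease. Its means over the 15 groups spanned only 0.76 log2 units, the smallest span of the 9 genes, against 3.51 for Phlda3, 2.76 for Trp53inp1 and 2.55 for Ccng1.

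Phlda3 (chr1:135766119-135769136, plus strand), an inhibitor of Akt at the membrane, had its highest mean in p53-2336R, 12.66 to 14.50 (median 13.46, n = 8), and its lowest in PyMT, 9.70 to 10.62 (median 9.83, n = 5). Those groups did not overlap, so in this gene the p53-lesion model was above the tumour without a labelled lesion. The share of all genes without overlap between them was not counted. It was higher in 6 of 10 p53-lesion models than in PyMT and ILC, and lower in 6 of 10 than in glands (13.26 ± 0.70 in FVB, n = 4, and 12.86 ± 1.32 in BALB/c, n = 5). Sesn2 (chr4:132492032-132510501, minus strand), a stress protein that restrains mTORC1, ran between 9.75 in KPB25L-UV and 10.77 ± 0.19 in p53-2225L (n = 5). It was called in 2 of 10 p53-lesion models against glands, both higher, and in 3 of 10 against PyMT and ILC, all lower. For both genes, 46% to 68.9% of all genes were called per comparison against glands (25.7% to 40.5% lower). Against PyMT and ILC 49.5% to 59.7% were called (18.1% to 37.2% higher).

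Over all 9 genes, 59 of 117 tests against glands were called, 25 higher and 34 lower, where a median of 59.9% of all genes was called per comparison. In an alternative, KPB models were set against FVB glands alone, and T11 and p53- models against BALB/c glands alone. It gave 51 calls, 19 higher and 32 lower. Against PyMT and ILC 46 of 90 were called, 12 higher and 34 lower, where the median was 52.5%. The split depended on scaling: with every library centred on its median, the calls were 47 higher and 29 lower against glands, and 27 higher and 24 lower against PyMT and ILC. Centring moved the median of all genes by the shift it removed, which was -0.47 to 0.22 against glands and -0.33 to 0.21 against PyMT and ILC. Under centring Mdm2 turned from lower to higher against glands in KPB25L-UV (0.12) and T11-Apobec (0.39).

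The genes that p21 is known to lower through its effect on cell cycle transcription were set beside the p53 targets. In the fit of model means, 1.05% of all genes were called against PyMT and ILC and 16.2% against glands. Of the 10 cell cycle genes, 6 were higher in p53-lesion tumours than in PyMT and ILC, among them Bub1 (2.18), Ccnb1 (2.00), Cdk1 (1.87) and Ccna2 (1.81). Against glands 10 of 10 were higher, by 3.58 to 4.71. Cdkn2a, which encodes the Mdm2 inhibitor Arf, was higher by 4.13 against PyMT and ILC and by 7.36 against glands. Of 27 further p53 targets, 0 were called against PyMT and ILC (median -0.38), and 2 were lower against glands, Btg2 (-2.06) and Rrm2b (-1.34).

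The 9 genes did not form one profile over groups. Over 32 untreated tumour and gland groups, which share libraries and scaling, Trp53inp1 and Ccng1 had a Pearson r of 0.78, whereas Trp53inp1 and Bax had -0.82, Ccng1 and Bax -0.63, and Phlda3 and Bbc3 -0.53. Trp53inp1 is the longest of the 9 genes and Bax among the shortest, and median length slopes of these groups ran between -0.42 and 0.38. The part of transcript length in these correlations was not tested. The gene most like each of the 9 genes over the same 32 groups was Lgals3 for Cdkn1a (r = 0.75), Phkb for Ccng1 (0.89), Ap2s1 for Bax (0.94), Tfg for Bbc3 (0.74), Rell2 for Aen (0.81) and Ppip5k1 for Trp53inp1 (0.95). It was Slc25a21 for Phlda3 (0.82), Kbtbd4 for Sesn2 (0.83) and Cct2 for Mdm2 (0.84). The next in rank were Med11 and Ufsp2 for Cdkn1a (0.74 and 0.73), Ppp1r14b and Plscr3 for Bax (0.92 each), and Rab3ip and Cul4a for Mdm2 (0.83 and 0.82). For the other genes they were Dcun1d3 and Dhdh for Ccng1 (0.88 and 0.86), Dtd1 and Sh3gl2 for Aen (0.81 and 0.79), Mtm1 and Crebl2 for Trp53inp1 (0.95 and 0.94), Dmtn and Cnn1 for Phlda3 (0.79 and 0.77), Tmco3 and Ttc30a1 for Sesn2 (0.82 each), and Sigirr and Ift43 for Bbc3 (0.70 each). Cct2 and Rab3ip lie within 3 Mb of Mdm2 and were high together with it in p53-2224L tumours at 3 days, a group among the 32. The part of that group in their r was not tested. Across the 12 untreated models at 3 days all 9 genes differed in limma's F-test, as did 96.9% of genes tested.

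Mdm2 (chr10:117688875-117710758, minus strand) encodes the ubiquitin ligase that degrades p53 and is itself a p53 target. Its end-stage level was 16.27 in the library of p53-2224 and 15.82 in that of p53-2224L, where KPB-1A averaged 12.43 ± 0.34 (n = 5) and no other model mean exceeded 12.36. At 3 days the 4 untreated p53-2224L tumours had 14.51, 15.04, 13.61 and 15.27, and the 43 untreated libraries of 11 other models had a median of 11.24 and a maximum of 11.93. Every p53-2224L tumour thus lay above every other tumour, with a mean difference of 3.39 to the other models.

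The genes beside Mdm2 shared this. This neighbourhood was examined after the Mdm2 values had been seen, so the values are a description without a test. Of 43 tested genes within 3 Mb of Mdm2, 8 (18.6%) had all 4 p53-2224L libraries above all 43 others, against 0.729% of all 20848 genes tested. They were Rab3ip (3.20), Cct2 (3.25), Yeats4 (4.24), Lyz1 (5.99), Mdm2, Slc35e3 (4.16), Nup107 (2.36) and Rap1b (1.68). The 8 genes lie in 0.94 Mb, chr10:116905784-117846035 (GRCm38), which holds 14 tested genes. That stretch was drawn from the first to the last of the 8 genes, so they cannot lie outside it. Mdm2, whose level led to the window, is counted among the 8. The 29 tested genes outside the stretch had a median difference of -0.29, between -3.69 and 1.79. Within that stretch 6 genes overlapped the other models, Frs2 (2.16), Cpm (1.02), Cpsf6 (0.27), D630029K05Rik (-0.11), Lyz2 (-0.36) and Kifc5c-ps (-1.13). Outside it Mdm1 (1.79), Dyrk2 (1.79), Kcnmb4os2 (1.75) and Cand1 (1.69) differed by more than Rap1b but overlapped the other models. Lyz1 and Lyz2 are near-identical copies, so the split of reads between them is uncertain. The end-stage libraries of p53-2224 and p53-2224L, 1 each, had 18.50 and 18.12 for Cct2 and 15.71 and 15.33 for Slc35e3. DNA copy number was not analysed here.

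**Figure D2:**
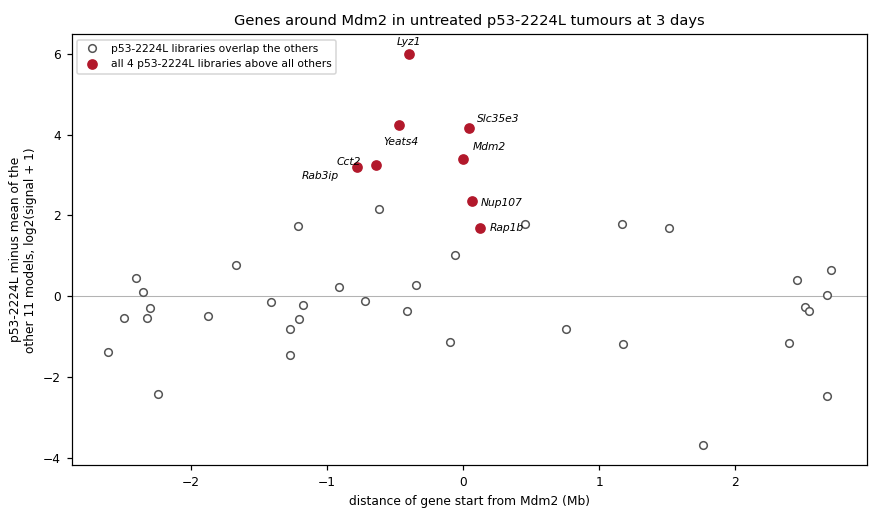
Difference in log2(signal + 1) between 4 untreated p53-2224L tumours at 3 days and the mean of 11 other models, for each tested gene within 3 Mb of Mdm2, against the distance of its start from that of Mdm2. Filled points are the 8 genes whose 4 p53-2224L libraries all exceed all 43 other libraries, which lie within 0.94 Mb.

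Under checkpoint therapy the p53 targets rose in few settings. Of 171 tests over 19 pairs of therapy and untreated groups, 11 were called, all higher, and 26 had an unadjusted p under 0.05. A single lower call appeared with the flow cell as a term (10 higher, 1 lower), with the length slope as a term (11 higher, 1 lower) and without the KPB25L-UV libraries that carried T11 markers (10 higher, 1 lower). In 15 of the 19 comparisons 0 of the 9 genes were called in limma, with 12 of 135 tests at an unadjusted p under 0.05. Among these 15, all genes called made up 7.46% in T11-UV at 7 days and, at end stage, 5.97% in KPB25L-UV, 1.2% in p53-2336R, 0.556% in T11-UV, 0.0911% in p53-2225L and 0.0048% in KPB25L. They made up 0.125% in T11-Apobec at 3 days and 0% in the other 8. The comparisons with a call were T11-Apobec at 7 days, KPB25L-UV at 7 days, KPB25L at 3 days and T11-UV at 3 days.

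**Figure D3:**
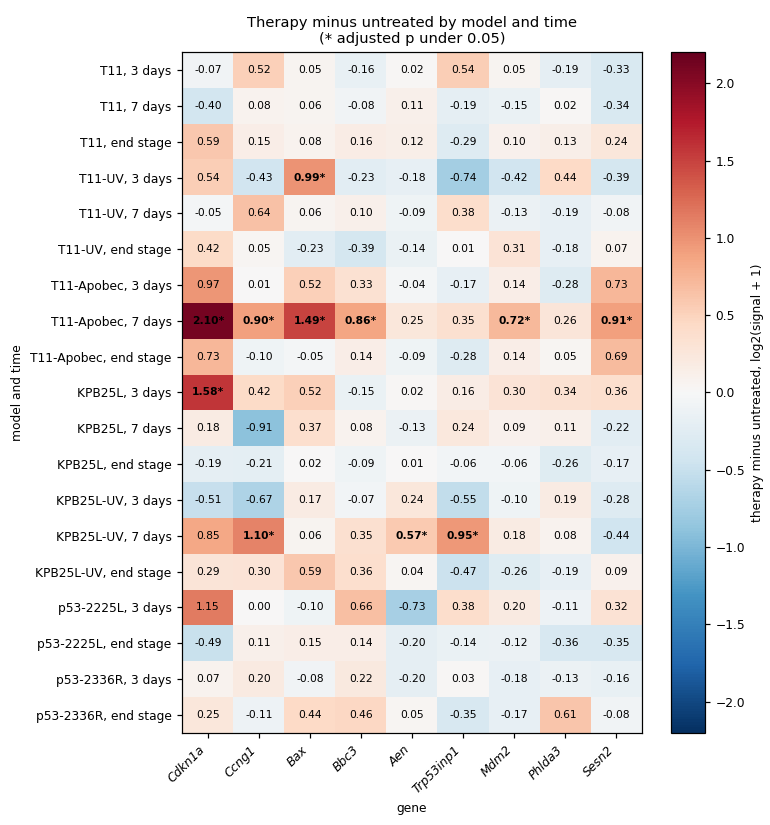
Therapy minus untreated difference, in log2(signal + 1), of each gene (columns) in each model and time (rows). Red is higher and blue lower under therapy, and an asterisk marks an adjusted p under 0.05. The row with the most calls, 6 of 9, is T11-Apobec at 7 days.

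In T11-Apobec tumours at 7 days, 6 of the 9 genes were higher under therapy, where 29.4% of all genes were called and 13.7% were called higher. The 4 treated tumours had Cdkn1a levels of 13.68, 12.44, 13.41 and 13.02, and the 4 untreated tumours 10.95, 11.07, 10.80 and 11.32. Every treated tumour was above every untreated one, and the difference was 2.10 ± 0.45 (SE, adjusted p = 0.000177). Bax was 13.66, 12.11, 12.73 and 13.06 in treated tumours and 11.36, 11.38, 11.34 and 11.52 in untreated tumours. The groups did not overlap, and the treated tumours spread far more than the untreated. The share of all genes without overlap between these arms was not counted, here and for the genes below.

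Mdm2 had 12.16, 12.07, 12.76 and 11.85 in treated and 11.45, 11.62, 11.46 and 11.44 in untreated T11-Apobec tumours, a difference of 0.72 (adjusted p = 0.0201). Sesn2 had 10.77, 10.84, 11.05 and 10.97 in treated and 10.13, 10.15, 9.92 and 9.79 in untreated tumours, a difference of 0.91 (adjusted p = 0.00672). Neither gene's groups overlapped. Ccng1 had 12.82, 12.36, 13.01 and 12.37 in treated and 11.82, 11.72, 11.69 and 11.72 in untreated tumours, also without overlap (0.90, adjusted p = 0.0466). Bbc3 had 10.04, 9.0, 9.56 and 10.02 in treated and 8.67, 8.77, 8.61 and 9.12 in untreated tumours (0.86, adjusted p = 0.00794). Its groups overlapped, since 1 treated tumour lay below 1 untreated tumour. Aen (0.25), Trp53inp1 (0.35) and Phlda3 (0.26) were not called. The median difference of the 9 genes was 0.86, against -0.05 over all genes.

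Both arms were sequenced on 1 flow cell, but they differed in the length slope. It was -0.46, -0.06, -0.16 and -0.36 in the treated tumours and 0.14, 0.13, 0.10 and 0.05 in the untreated, listed in the order used above, and the short gene Bax was highest in the tumours with the lowest slopes. With the slope of each library as a term in the fit, 6 of the 9 genes were again called higher, where 6.63% of all genes were called and 4.93% higher: Cdkn1a (1.49), Bax (0.47), Mdm2 (1.16), Ccng1 (1.23), Sesn2 (1.19) and Trp53inp1 (1.10). The Bax difference was 1.49 ± 0.25 without the term, Trp53inp1 was added, Bbc3 was no longer called (0.55, adjusted p = 0.239) and Phlda3 changed sign (-0.49).

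Without treated replicate 1, the tumour with a slope of -0.46, 3 of the 9 genes were called: Cdkn1a (1.92), Bax (1.24) and Sesn2 (0.95). The treated tumours also held more immune signal. Summed T cell markers were 12.62 to 13.30 in treated and 10.03 to 10.78 in untreated tumours, with 5 of 6 markers higher, and summed B cell markers were 10.53 to 11.24 in treated and 8.38 to 8.52 in untreated tumours. Summed macrophage markers were 17.03 to 17.80 in treated and 16.14 to 16.41 in untreated tumours, and fibroblast markers 16.55 to 17.64 in treated and 18.15 to 18.64 in untreated tumours. The part of these cells in the difference was not tested.

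**Figure D4:**
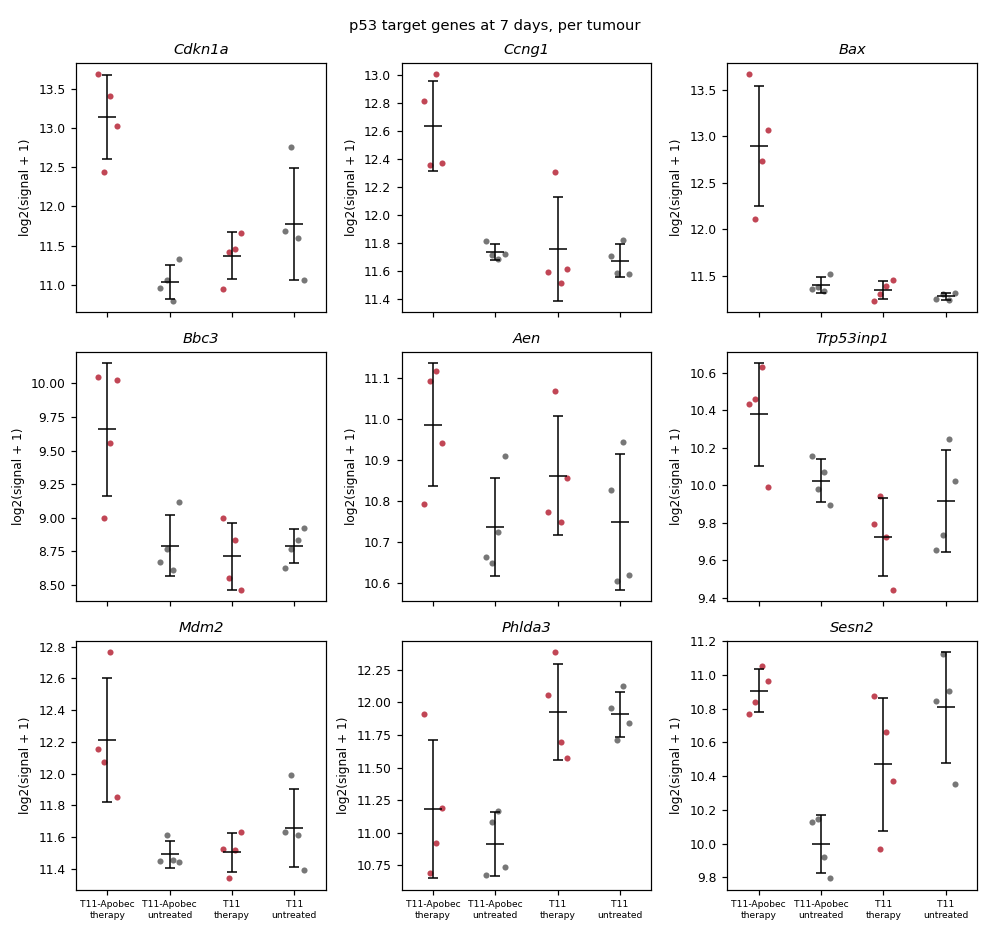
Level of each gene, as log2(signal + 1), in each T11-Apobec and T11 tumour at 7 days, with therapy in red and untreated in grey, 4 tumours a group; bars are the mean and SD. Treated T11-Apobec tumours lie above the untreated ones for Cdkn1a, Ccng1, Bax, Mdm2 and Sesn2, while treated and untreated T11 tumours overlap in all 9 genes. The share of all genes without overlap was not counted.

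The rest of the p53 pathway moved unevenly in these T11-Apobec tumours. In this comparison of therapy with untreated tumours at 7 days, 29.4% of all genes were called and 13.7% were called higher. Of 27 further p53 targets, 7 were higher and 3 lower (median 0.01), among them the growth factor gene Gdf15 (4.89), Dcxr (1.70), the death receptor gene Fas (1.59), Psrc1 (1.44) and Plk3 (1.12), with Ptprv at -2.32. Trp73, the p53 relative that binds the same element, was higher by 3.30, the kinase gene Atm lower by -2.39 and the deubiquitinase gene Usp7 lower by -0.40. Trp53 itself was at 0.43, not called. Of the 10 cell cycle genes, 7 were lower, including Mki67 (-1.52), Ccnb1 (-1.16), Plk1 (-0.92), Ccnb2 (-0.90) and Cdc25c (-0.90).

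In the parent line T11 at 7 days 0 of 9 genes were called in limma and 0 had an unadjusted p under 0.05, with differences between -0.40 and 0.11 (0% of all genes called). Summed T cell markers were 7.32 to 8.62 in treated and 7.52 to 8.04 in untreated T11 tumours. The therapy effect itself differed between T11-Apobec and T11 in 3 of 9 genes, where 4.62% of all genes differed: Cdkn1a by 2.51, Bax by 1.43 and Sesn2 by 1.25. With the length slope as a term, the differences of Cdkn1a (1.96) and Bax (0.53) were no longer called. Within T11-Apobec the Bax effect at 7 days exceeded that at end stage by 1.54 (6.96% of all genes called), and by 0.41, not called, with the length slope as a term. At end stage 0 of 9 genes were called in T11-Apobec and 1 had an unadjusted p under 0.05.

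In KPB25L-UV tumours at 7 days, 3 of the 9 genes were higher under therapy, where 19.4% of all genes were called: Ccng1 by 1.10 (adjusted p = 0.0117), Trp53inp1 by 0.95 (adjusted p = 0.0222) and Aen by 0.57 (adjusted p = 0.0264). The Ccng1 levels of the 6 treated tumours ran between 11.62 and 15.68, with the others at 11.91, 12.45, 12.48 and 12.95, and the 4 untreated tumours had 11.70, 11.66, 12.06 and 11.59. The groups overlapped, and the tumour at 15.68, replicate 4, stood alone. That tumour had summed skeletal muscle markers of 22.11, against 6.54 to 18.65 in the other 5 treated and 9.96 to 15.28 in the untreated tumours. Without it Ccng1 differed by 0.53 (adjusted p = 0.231) and 0 of the 9 genes were called. With only the 10 compared libraries setting the spread, the adjusted p was 0.399 for Ccng1, 0.218 for Trp53inp1 and 0.211 for Aen. Summed T cell markers were 12.34 to 14.44 in treated and 10.64 to 12.14 in untreated tumours, and B cell markers 9.45 to 13.29 in treated and 8.42 to 9.38 in untreated tumours. The part of muscle and immune cells was not tested.

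Trp53inp1 had 10.40, 12.43, 10.99, 11.75, 10.58 and 11.18 in treated KPB25L-UV tumours and 10.48, 10.45, 10.12 and 10.04 in untreated tumours, so 1 treated tumour lay among the untreated. Of these 10 tumours, 4 carried T11 marker transcripts, treated replicates 1 and 5 and untreated replicates 3 and 4. Without the libraries that carried them, Ccng1 (1.5) and Trp53inp1 (1.12) were called higher and Sesn2 lower (-0.77), and Aen was not called (0.30). The therapy effect on Ccng1 was larger in KPB25L-UV than in KPB25L by 2.00 (adjusted p = 0.0292; 0.868% of all genes called), where KPB25L itself differed by -0.91, not called. In KPB25L the summed muscle markers were 8.28, 13.98, 9.90 and 10.80 in treated and 19.76, 14.65 and 17.67 in untreated tumours. Without treated KPB25L-UV replicate 4 the difference between the models was 1.44 (adjusted p = 0.251), and without untreated KPB25L replicate 1, the tumour at 19.76, it was 1.51 (adjusted p = 0.23). The part of muscle was not tested. The Ccng1 effect was also larger in KPB25L-UV at 7 than at 3 days by 1.77, together with Trp53inp1 by 1.5 (11.6% of all genes called). Over all models, the calls between times fell from 3 to 1 without treated KPB25L-UV replicate 4. They also fell from 3 to 1 with the flow cell as a term. Averaged over T11-UV, T11-Apobec, KPB25L and KPB25L-UV at 7 days, 5 of 9 genes were higher, where 36.7% of all genes were called: Cdkn1a (0.77), Bax (0.49), Trp53inp1 (0.48), Ccng1 (0.43) and Bbc3 (0.35). These are the same libraries as above. With the length slope as a term the genes called for this average were Trp53inp1 (0.79), Ccng1 (0.57) and Mdm2 (0.40). The other comparisons of the therapy effect between models or times had 0 calls among the 9 genes, with 7 of 81 tests at an unadjusted p under 0.05. All genes called there made up 0.571% between T11-UV and T11, 4.25% and 1.43% in T11-UV at 7 days against 3 days and end stage, 2.98% in KPB25L-UV against end stage, 0.173% in T11-Apobec against 3 days, 0.0048% in KPB25L against 3 days, and 0% in the other 3.

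At 3 days a single gene was called in each of KPB25L and T11-UV. In KPB25L the treated tumours had Cdkn1a levels of 10.93, 12.50, 10.69, 13.89 and 13.90, and the untreated tumours 10.41, 10.58, 10.71, 11.19 and 11.10, a difference of 1.58 (adjusted p = 0.00479; 14.4% of all genes called). The groups overlapped. The highest pair was sequenced on a flow cell without untreated KPB25L tumours. On the flow cells with both arms, 10.93 in a treated tumour stood against 10.71 and 11.19 in untreated tumours, and 12.50 and 10.69 in treated tumours against 11.10 in an untreated tumour. With the flow cell as a term the difference was 0.43 and not called, and with only the compared libraries setting the spread the adjusted p was 0.252. Summed T cell markers were 8.84, 12.26, 9.89, 12.31 and 11.99 in the treated tumours, in the order above, and 8.79 to 11.20 in the untreated. In the same order macrophage markers were 15.44, 17.03, 16.13, 16.73 and 16.68, against 15.19 to 16.06 in the untreated. Fibroblast markers were 19.88, 21.05, 19.88, 20.86 and 21.47, against 18.58 to 21.17, and adipocyte markers 11.30, 15.28, 9.89, 15.64 and 14.25, against 9.27 to 11.22. The treated tumours high in Cdkn1a were thus the highest of the treated in all 4 of these marker sums. Muscle markers did not follow this order. The part of these cells was not tested.

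In T11-UV at 3 days the treated tumours had Bax levels of 13.29, 11.61 and 13.29 and the untreated tumours 11.53, 12.02, 11.60 and 11.84, a difference of 0.99 (adjusted p = 0.0113; 14.1% of all genes called). The groups overlapped, since 1 treated tumour lay among the untreated. The length slopes were -0.38, 0.02 and -0.54 in the treated tumours and -0.04, -0.28, -0.05 and -0.17 in the untreated, so the high-Bax tumours had the lowest slopes. With the slope as a term Bax differed by 0.53 (adjusted p = 0.0201), and with only the 7 compared libraries setting the spread the call was lost (adjusted p = 0.324). Summed macrophage markers were 17.53, 15.80 and 17.28 in the treated tumours, in the order above, and 15.69 to 16.05 in the untreated. T cell markers were 10.55, 8.37 and 10.88 in the treated and 8.45 to 8.89 in the untreated tumours, and fibroblast markers 17.35, 18.79 and 17.38 in the treated and 18.34 to 19.26 in the untreated. The tumours high in Bax were thus high in macrophage and T cell markers and low in fibroblast markers, whose part was not tested.

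Without therapy, genes of the 9 differed between end stage and 3 days in 1 of 8 models. In KPB-1A, where 22.9% of all genes were called, Bax had 11.12, 10.81, 10.71, 10.21 and 10.22 at end stage and 11.74 and 11.71 at 3 days, lower by -1.11 (adjusted p = 0.00317). Trp53inp1 had 10.77, 11.42, 11.18, 12.30 and 12.11 at end stage and 10.12 and 10.09 at 3 days, higher by 1.45 (adjusted p = 0.00463), and Mdm2 was higher by 0.76 (adjusted p = 0.0476). In all 3 genes the groups did not overlap. The share of all genes without overlap between these times was not counted. The times were sequenced on different flow cells, and the length slopes were 0.21, 0.22, 0.22, 0.37 and 0.36 at end stage and -0.16 and -0.17 at 3 days. With the slope as a term Bax was at 0.13, Trp53inp1 at 0.54 and Mdm2 at 0.22, and 0 of these 3 were called. In the other 7 models 0 of 63 tests were called in limma and 3 had an unadjusted p under 0.05. All genes called there made up 15.9% in KPB25L-UV, 4.02% in p53-2336R, 1.97% in T11-Apobec, 0.0192% in T11-UV, 0.0144% in T11, and 0% in KPB25L and p53-2225L.

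Derivatives differed from their untreated parents in 3 of 90 tests. At 7 days Bax was 13.11, 11.78, 12.45 and 12 in T11-UV and 11.26, 11.31, 11.24 and 11.31 in T11, higher by 1.06 (adjusted p = 0.00158; 20.4% of all genes called). Trp53inp1 was 8.13, 9.23, 8.96 and 9.11 in T11-UV and 9.66, 9.73, 10.24 and 10.02 in T11, lower by -1.06 (adjusted p = 0.0194). Neither gene's groups overlapped. Each line was on a flow cell of its own, which cannot be told apart from the line, and the slopes were -0.45, -0.09, -0.31 and -0.19 in T11-UV and 0.09, 0.08, 0.14 and 0.09 in T11. With the slope as a term Bax was at 0.04 and Trp53inp1 at -0.31, neither called. Phlda3 was 10.67, 11.08, 11.17 and 10.74 in T11-Apobec and 11.96, 11.71, 12.13 and 11.84 in T11 at 7 days, lower by -0.99 (adjusted p = 0.0269; 4.3% of all genes called), a call lost with centring (adjusted p = 0.11). These groups did not overlap. The share of all genes without overlap was not counted for T11-UV or T11-Apobec against T11. Summed T cell markers were 10.03 to 10.78 in T11-Apobec and 7.52 to 8.04 in T11, and fibroblast markers 18.15 to 18.64 in T11-Apobec and 18.88 to 19.35 in T11, whose part was not tested. The other 8 comparisons gave 0 calls in limma over 72 tests, with 6 at an unadjusted p under 0.05. In KPB25L-UV 11.7%, 9.45% and 0.168% of all genes were called at 3 days, 7 days and end stage, and in KPB25L-Apobec 3.81% at 3 days. In T11-Apobec 5.5% were called at 3 days and 1.24% at end stage, and in T11-UV 0.264% and 0.926%.

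In culture, where no host cells are present, the lines were measured once each on a scale of their own, so these values have no test. The T11 lines are T11_EF1A_APOBEC_CELL_LINE, T11_V5_CELL_LINE and T-11-CellLine-VALIDATION, and the KPB lines KPB_EF1A_APOBEC_CELL_LINE, KPB_25L_V1_5_CELL_LINE and KPB-25L-CellLine-VALIDATION. The header of their table calls each validation culture a parent and the others mutagenized. In that order Cdkn1a was 8.44, 8.97 and 9.25 in the T11 lines and 7.47, 7.57 and 6.81 in the KPB lines. Trp53 was 10.54, 9.75 and 10.74 in the T11 lines and 6.38, 7.55 and 7.38 in the KPB lines. Both genes were higher in every T11 line than in every KPB line. So was Mdm2, at 10.42, 10.41 and 10.68 in the T11 lines and 9.80, 10.18 and 9.72 in the KPB lines. Aen was lower in every T11 line, at 9.94, 10.02 and 10.25, against 10.45, 11.36 and 10.35 in the KPB lines. The share of all genes that separate the lines in this way was not counted. All 9 genes were detected in all 6 lines.

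**Figure D5:**
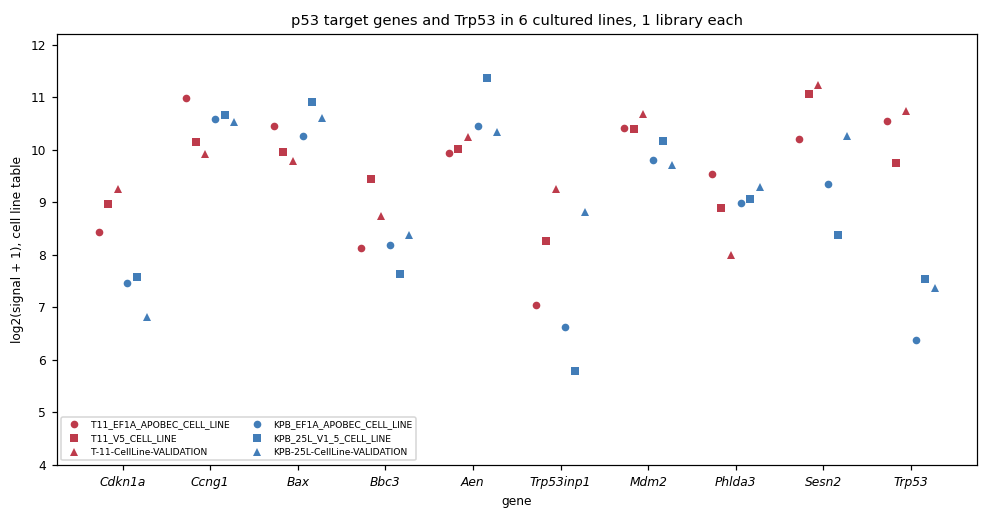
Level of the 9 genes and Trp53, as log2(signal + 1) on the scale of the cell line table, in 3 T11 lines (red) and 3 KPB25L lines (blue), 1 library each. For Cdkn1a, Mdm2 and Trp53 every T11 line lies above every KPB line, and for Aen every T11 line lies below every KPB line.

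Each mutagenized line was compared with its parent. Trp53inp1 was lower in each of the 4 mutagenized lines by at least 1 log2 unit. It was 7.04 in T11_EF1A_APOBEC_CELL_LINE and 8.26 in T11_V5_CELL_LINE, against 9.26 in T-11-CellLine-VALIDATION, and 6.62 in KPB_EF1A_APOBEC_CELL_LINE and 5.80 in KPB_25L_V1_5_CELL_LINE, against 8.81 in KPB-25L-CellLine-VALIDATION. The differences were -2.21 and -1.0 in T11 and -2.19 and -3.02 in KPB.

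Of 36 differences over the 9 genes and 4 lines, 9 passed 1 log2 unit, 3 higher and 6 lower. Beside Trp53inp1 they were Phlda3 (1.55), Ccng1 (1.07) and Sesn2 (-1.03) in T11_EF1A_APOBEC_CELL_LINE, and Aen (1.01) and Sesn2 (-1.88) in KPB_25L_V1_5_CELL_LINE. The share of all genes past the same fold was 26.2% in T11_EF1A_APOBEC_CELL_LINE, 10.5% in T11_V5_CELL_LINE, 23.5% in KPB_EF1A_APOBEC_CELL_LINE and 30.2% in KPB_25L_V1_5_CELL_LINE. After centring 11 passed, with Cdkn1a at -1.12 in T11_EF1A_APOBEC_CELL_LINE, 1.08 in KPB_EF1A_APOBEC_CELL_LINE and 1.06 in KPB_25L_V1_5_CELL_LINE among them and Ccng1 no longer (0.76).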

How the data were processed

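Per the labels' protocols, RNA was extracted with Qiagen kits, made into libraries with the Illumina TruSeq mRNA kit and sequenced as paired reads. The submitters' processing notes name STAR, SAMtools, Picard, Salmon and mm10, without their roles. The authors deposited gene-level normalized signal in a table for tumours and glands and another for cultured lines, scaled so that the upper quartile of each library was 2048.974 and 1000. Values were analysed as log2(signal + 1). From the steps of low values, 63.2% to 86.9% of values in a tumour or gland library were whole reads, too few for a count test, so depths are estimates. Of 45724 entries, date-like and repeated names were left out, and 45657 genes were kept. A pair of libraries of 1 mouse was averaged, giving 263 samples.

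Groups were fitted with limma 3.58.1 (R 4.3.3) with a mean-variance trend, Benjamini-Hochberg adjusted over all genes tested, and called at an adjusted p of 0.05. Genes needed a value above 0 in at least 4 samples and a mean in the upper 66.7%. The therapy, growth and derivative fit held 192 samples in 47 groups (20848 genes), the end-stage fit 106 samples (21366 genes), and the fit of model means 22 models (20486 genes). Replicate numbers were given in accession order and pair nothing. Nothing says that samples of a group came from separate litters or days, so p-values measure the spread between these samples.

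The genes and lists were chosen with earlier results of these data known. All 9 genes were named. Of further lists, up to 6 called genes with the largest differences were named per comparison. The 3 most alike genes were ranked by Pearson r over groups of 2 or more libraries. Positions come from GENCODE vM21 (GRCm38). Alternatives covered pseudocount, filter, centring, samples in the fit, flow cell, length slope and leaving out each library. Tests were checked on simulated data. Python 3.11.15, numpy 2.4.6, pandas 2.3.3 and matplotlib 3.10.9 were used.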

Additional observations from a re-analysis of the deposited data

Results flagged for a closer look

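Of 378 sets of 1 gene in 1 group of 4 to 10 samples, 26 (6.88%) held a sample far from the others, by a 95% critical value that chance passes in about 1 in 20 sets. Ccng1 was far above the others in 6 groups, each time in the tumour with the highest summed skeletal muscle markers of its group. In treated KPB25L-UV tumours at 7 days replicate 4 had 15.68, against 11.62 to 12.95 in the others, with muscle markers of 22.11. In untreated KPB25L-UV tumours at end stage replicate 6 had 12.30, against 10.92 to 11.23, with muscle markers of 17.79, against 6.41 to 14.75. In treated T11 tumours at 7 days replicate 2 had 12.31, against 11.52 to 11.62, with muscle markers of 18.97, against 7.65 to 9.08. In treated T11 tumours at 3 days replicate 3 had 12.25, against 11.51 to 11.61, with muscle markers of 17.89, against 9.52 to 12.89. In untreated T11-Apobec tumours at 3 days replicate 3 had 12.36, against 11.35 to 11.45, with muscle markers of 17.71, against 7.81 to 12.56. In treated p53-2336R tumours at 3 days replicate 1 had 12.81, against 10.66 to 11.22, with muscle markers of 18.72, against 3.84 to 5.50. The part of muscle in these Ccng1 values was not tested. In 1 group Ccng1 was far below the others, at 11.34 in treated T11-Apobec replicate 4 at 3 days, against 11.72 to 11.79.

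BALB/c gland replicate 1 had a Phlda3 level of 10.56, against 13.19 to 13.95 in the other glands of that strain. Its summed B cell markers were 17.67, against 13.86 to 14.60, and its adipocyte markers 16.74, against 19.20 to 19.44.

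The other values were as follows. Aen was 11.66 in KPB25L-UV end-stage replicate 6, against 11.20 to 11.33. Aen was 10.87 in treated T11-UV replicate 4 at 7 days, against 10.41 to 10.49, and 11.90 in p53-2336R end-stage replicate 1, against 11.12 to 11.47. Bax was 10.83 in p53-2336R end-stage replicate 7, against 11.31 to 11.69. At 3 days Trp53inp1 was 11 in treated KPB25L replicate 2, against 10.01 to 10.24, Aen was 12.49 in untreated KPB25L replicate 2, against 11.24 to 11.57, and Bax was 12.92 in untreated KPB25L-Apobec replicate 5, against 11.93 to 12.17. Also at 3 days Bax was 11.53 in untreated T11 replicate 1, against 11.63 to 11.64, Aen was 10.96 in untreated T11-Apobec replicate 3, against 10.81 to 10.82, and Sesn2 was 10.76 in untreated T11-UV replicate 4, against 10.88 to 10.91. Cdkn1a was 11.18 in treated p53-2336R replicate 1 at 3 days, against 9.41 to 9.72, and 9.06 in treated p53-2336R replicate 4 at end stage, against 10.50 to 10.95. Bax was 12.71 in treated p53-2336R replicate 2 at end stage, against 11.64 to 11.86. Mdm2 was 11.55 in treated T11-Apobec replicate 1 at end stage, against 11.08 to 11.15, 11.05 in treated T11-UV replicate 4 at end stage, against 11.58 to 11.79, and 11.58 in untreated p53-2225L replicate 2 at 3 days, against 11.89 to 11.93. Mdm2 was 12.14 in PyMT replicate 3, against 11.59 to 11.74, and 11.62 in untreated T11-Apobec replicate 2 at 7 days, against 11.44 to 11.46. Some of these values also came from the tumour with the highest summed muscle markers of its group. Among them were Aen in KPB25L-UV end-stage replicate 6 (17.79) and, at 3 days, in untreated KPB25L replicate 2 (17.12) and T11-Apobec replicate 3 (17.71). Cdkn1a in treated p53-2336R replicate 1 at 3 days (18.72) was another. Others did not, such as Bax in untreated T11 replicate 1 at 3 days (7.42). The part of muscle was not tested.

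The therapy effect differed between groups in 7 tests by limma's interaction. T11-Apobec exceeded T11 at 7 days in Cdkn1a (2.51), Bax (1.43) and Sesn2 (1.25), and KPB25L-UV exceeded KPB25L in Ccng1 (2.00), or by 1.44 (adjusted p = 0.251) without treated KPB25L-UV replicate 4, the tumour at 15.68. In KPB25L itself Ccng1 differed by -0.91, not called, with muscle markers of 8.28 to 13.98 in treated and 14.65 to 19.76 in untreated tumours, and the part of muscle was not tested. The effect at 7 days exceeded that at end stage in Bax in T11-Apobec (1.54), and that at 3 days in Ccng1 (1.77) and Trp53inp1 (1.5) in KPB25L-UV. Of these 3 calls between times, 1 was left without treated KPB25L-UV replicate 4, and 1 call was made with the flow cell as a term.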

How the results depend on the processing

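Apart from left-out libraries, 1169 single values kept their direction and their side of the threshold, 82 lost the call, 3 gained it and 9 reversed. When each library or model was left out in turn, 1536 kept both, 114 lost the call, 5 gained it and 0 reversed. The Mdm2 windows, the length slope and the end-stage comparisons without KPB25L-UV libraries with T11 markers were alternatives chosen after seeing the data. With only the compared libraries setting the spread, the therapy calls were 6 in place of 11, those of KPB25L-UV at 7 days 0 in place of 3, and those of the average of 4 models 3 in place of 5. In that setting Cdkn1a in KPB25L (adjusted p = 0.252) and Bax in T11-UV (adjusted p = 0.324) were not called at 3 days. With the flow cell as a term, the average gave 2 calls and the differences between times 1 in place of 3. With the length slope as a term, the average gave 3 calls, growth 1 in place of 3, and p53-lesion models against glands 1 in place of 2, the call of Bax being lost. That last count was also 1 with only models of 4 or more libraries, and 1 with C3-TAG counted among the lesion models. A pseudocount of 16 gave 1 call in place of 0 against PyMT and ILC over model means. Except for the libraries and models dropped, the cause was not tested.

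Leaving out 1 library or model at a time gave 8 to 12 calls for therapy, 3 to 6 for T11-Apobec and 0 to 4 for KPB25L-UV at 7 days, 3 to 5 for the average, 1 to 5 for differences between models and 1 to 4 between times. It gave 0 to 3 for growth, 3 to 4 for derivatives, 55 to 66 against glands, 41 to 46 against PyMT and ILC, and, over model means, 1 to 3 and 0 to 1. The libraries behind moves over 1.5 times were treated T11-Apobec replicate 1 at 7 days (1 call between models and 3 in the average), treated KPB25L-UV replicate 4 (0 calls, and 1 between times), untreated KPB25L-UV replicates 3 and 4 (1 call each), untreated KPB25L replicate 1 (3 in the average) and either 3-day KPB-1A tumour (0 for growth). Over model means they were either gland strain (1) and KPB-1B (1).

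Values reversed with the length slope for Phlda3 in T11-Apobec (-0.49) and in the average (-0.25) and for Bax in KPB-1A growth (0.13). They reversed with centring for Mdm2 against glands in KPB25L-UV (0.12) and T11-Apobec (0.39), against PyMT and ILC for Aen (0.0039) and Mdm2 (0.0103) in T11-UV and Mdm2 in T11-Apobec (0.046), and for Sesn2 over model means (0.069). Centring also ended the calls of Phlda3 in T11-Apobec against T11 (adjusted p = 0.11) and of Ccng1 across models at 3 days (adjusted p = 0.101). In T11-Apobec at 7 days, Cdkn1a, Bax and Sesn2 were called in all 16 alternatives, Ccng1 was lost in 8, and Mdm2 and Bbc3 in 2 each. Windows of 1 Mb and 10 Mb around Mdm2 held 8 of 17 (47.1%) and 8 of 119 genes (6.72%) above all other libraries. No paired analysis was possible because replicate numbers were given in accession order and do not pair samples. Models with 1 library have no spread between mice.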
